A study of Mus musculus with 15 samples.

Results

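The genes described here encode the nuclear subunits of respiratory complexes II, III, IV and V and cytochrome c, the small carrier protein between complexes III and IV. A fixed list of 39 such genes was used: 4 of complex II, 9 of complex III, 10 of complex IV, 15 of complex V and Cycs for cytochrome c. Each gene was read from a probe set annotated to that gene alone, and from the brightest one over all arrays where several existed. This gave values for 38 of the 39 genes, among 19939 named genes in all. Cox7c, a subunit of complex IV, lay only on probe sets annotated to several genes and has no value here.

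The tissue was gonadal white adipose tissue of male C57BL6/J mice at 12 weeks of age, all fed a high-fat diet for the 8 weeks since week 4. The groups were 7 wild-type mice and 8 Sfrp5 knockout mice, whose allele is labelled Q27Stop, with 1 Affymetrix array per mouse. Sfrp5 encodes a secreted protein that binds Wnt ligands, and the series asks how its loss alters gene expression in this fat depot. The labels name neither littermates nor any batch.

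Complexes III and IV pass electrons from ubiquinol to oxygen through cytochrome c and pump protons, complex II feeds electrons from succinate into the same pool without pumping, and complex V (ATP synthase) uses the proton gradient to make ATP. All subunits of complex II are encoded in the nucleus, whereas complexes III, IV and V also hold subunits encoded in mitochondrial DNA. White adipocytes contain fewer mitochondria than brown ones, and their respiratory genes are known targets of the factors NRF1, GABP and the estrogen-related receptors with the coactivators Ppargc1a and Ppargc1b.

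Promoter sequence was available for 30 of the 38 measured members, as 33 windows running from 250 bases before to 50 bases after each RefSeq start on GRCm38.p6. No window was available for Sdhc, Uqcrc2, Uqcrb, Uqcrq, Cyc1, Cox4i1, Cox6c and Atp5a1, so these were not searched. Both strands were searched for exact matches. The NRF1 core GCGCATGCG, which nearly repeats itself on the opposite strand, lay in the windows of 7 members (Atp5g2, Atp5k, Atp5l, Cox6a1, Cycs, Uqcr11 and Uqcrc1), against 1.75% of all 32851 windows in the table. The ETS motif bound by GABP, CCGGAAGT, lay in those of 4 members (Atp5h, Cox8a, Uqcr11 and Uqcrh), against 3.89% of all windows. The estrogen-related receptor half-site TNAAGGTCA lay in those of Atp5g3 and Sdhd, against 1.28%. The YY1 motif AAGATGGCG lay in those of Atp5j and Atp5j2, against 1.4%, and the Sp1 box GGGCGG in those of 11 members, against 35.7%. In no member window did matches of different motifs overlap; Atp5j has 2 windows, 1 with the YY1 match and the other with the Sp1 box. These matches describe letters in a window and are not measurements of binding.

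The stretches below end at the base before the RefSeq start. They come from genes whose array values are described later and whose windows held a motif match. Atp5g2 and Atp5g3 encode the same mature subunit c of ATP synthase, and Cycs is cytochrome c. Atp5l, Atp5h and Cox6a1 are among the members with the lowest p-values. Cox7b and Atp5g1 are also described later, but their windows held no match of the searched motifs, and they are not shown. Every stretch is long enough to take in its marked match. Each reads 5′ to 3′ on the gene's own strand, which is the minus strand in all 6. Capitals mark the NRF1 core (overlapping matches on both strands are joined), in Atp5g3 the estrogen-related receptor half-site and in Atp5h the GABP motif.
Atp5g2, chr15:102671048-102671197: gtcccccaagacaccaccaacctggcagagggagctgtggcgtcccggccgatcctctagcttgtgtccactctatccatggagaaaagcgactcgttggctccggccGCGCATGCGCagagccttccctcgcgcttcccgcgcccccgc
Atp5g3, chr2:73911327-73911476: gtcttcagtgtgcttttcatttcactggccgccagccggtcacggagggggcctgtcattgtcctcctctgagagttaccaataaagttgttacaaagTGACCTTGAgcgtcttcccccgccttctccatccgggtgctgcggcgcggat
Atp5l, chr9:44920743-44920992: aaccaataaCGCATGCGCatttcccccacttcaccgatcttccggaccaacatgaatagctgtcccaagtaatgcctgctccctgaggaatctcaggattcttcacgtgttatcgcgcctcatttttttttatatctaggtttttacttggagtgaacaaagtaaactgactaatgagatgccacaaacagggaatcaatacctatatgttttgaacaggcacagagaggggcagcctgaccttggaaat
Atp5h, chr11:115419920-115420069: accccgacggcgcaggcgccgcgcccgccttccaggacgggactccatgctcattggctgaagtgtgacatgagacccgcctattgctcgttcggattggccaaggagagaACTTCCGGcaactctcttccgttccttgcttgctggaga
Cox6a1, chr5:115348959-115349138: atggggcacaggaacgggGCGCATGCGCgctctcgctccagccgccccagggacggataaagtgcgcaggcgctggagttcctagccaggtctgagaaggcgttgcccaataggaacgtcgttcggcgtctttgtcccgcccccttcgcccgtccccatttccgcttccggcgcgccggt
Cycs, chr6:50566570-50566719: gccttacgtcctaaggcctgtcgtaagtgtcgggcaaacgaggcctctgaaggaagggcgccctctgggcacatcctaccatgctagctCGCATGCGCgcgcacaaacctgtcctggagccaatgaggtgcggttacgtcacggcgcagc

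Values are log2 levels, and differences are knockout minus wild type on that scale. Sfrp5 itself lay between 7.67 and 8.33 in wild type and between 6.02 and 7.12 in the knockout, with no overlap (difference -1.23, SE 0.16, limma adjusted p = 0.02). The difference was between -1.29 and -1.13 whichever array was left out, and its adjusted p was above 0.05 without any 1 of knockout replicates 2, 5 and 8 and wild-type replicates 2, 3, 4 and 5. A stop codon removes no part of the transcript, so this level does not measure the protein. The 10 measured adipocyte markers averaged 11.71 to 12.03 in wild type and 11.77 to 12.06 in the knockout, and the brown or beige markers 6.07 to 6.42 over all arrays. Of the adipocyte markers 7 were higher in the knockout, with a median difference of 0.03 and 1 at an unadjusted limma p below 0.05. After quantile normalization 2 of them were higher. Of 10 brown or beige markers 8 were lower, with a median difference of -0.05. The arrays knockout replicate 2 and wild-type replicate 4 carried high levels of epididymis markers, at means of 10.4 and 7.81, and knockout replicate 8 and wild-type replicate 2 were the highest in macrophage markers of their genotypes (9.38 and 8.89). The means of 7 of 9 measured epididymis markers, 9 of 10 macrophage markers and all 10 mesothelial markers were higher in the knockout, the last by a median of 0.35 with 4 at an unadjusted limma p below 0.05. Of 10 skeletal muscle markers 7 were higher, with a median difference of 0.04 and 1 at an unadjusted limma p below 0.05. Of 10 endothelial markers 9 were lower, with a median difference of -0.11, and 0 markers in these lists passed an adjusted p of 0.05. The part of these cell types in the differences below was not tested. The median difference of the members, 0.05 over all arrays, was 0.05 without the epididymis-high pair of arrays and 0.04 without the macrophage-high pair.

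None of the 38 members passed an adjusted p of 0.05 in limma, where 12 of all 35557 probe sets (0.0337%) did. The lowest adjusted p of a member was 0.18, for Atp5l. The means of 30 of the 38 members were higher in the knockout, by a median of 0.05, whereas 44.82% of all named genes were higher, with a median difference of -0.01. At an unadjusted limma p below 0.05, 6 members were higher (Uqcrb, Cox7b, Cox6a1, Atp5l, Atp5h and Atp5g2) and 0 were lower. The background was 2.3% of named genes higher and 4.39% lower, and 3.94% higher among the 5638 named genes at least as bright as the dimmest member. This share was larger among brighter named genes. It was 4.825% at a level of 10 to 11, 9.389% at 11 to 12, 23.6% at 12 to 13 and 21.05% at 13 or above. Most members lie in these ranges, and the count of 6 was not tested against these shares. In bulk tissue, a different number of cells of one type and a different amount of RNA per cell cannot be told apart.

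**Figure D1:**
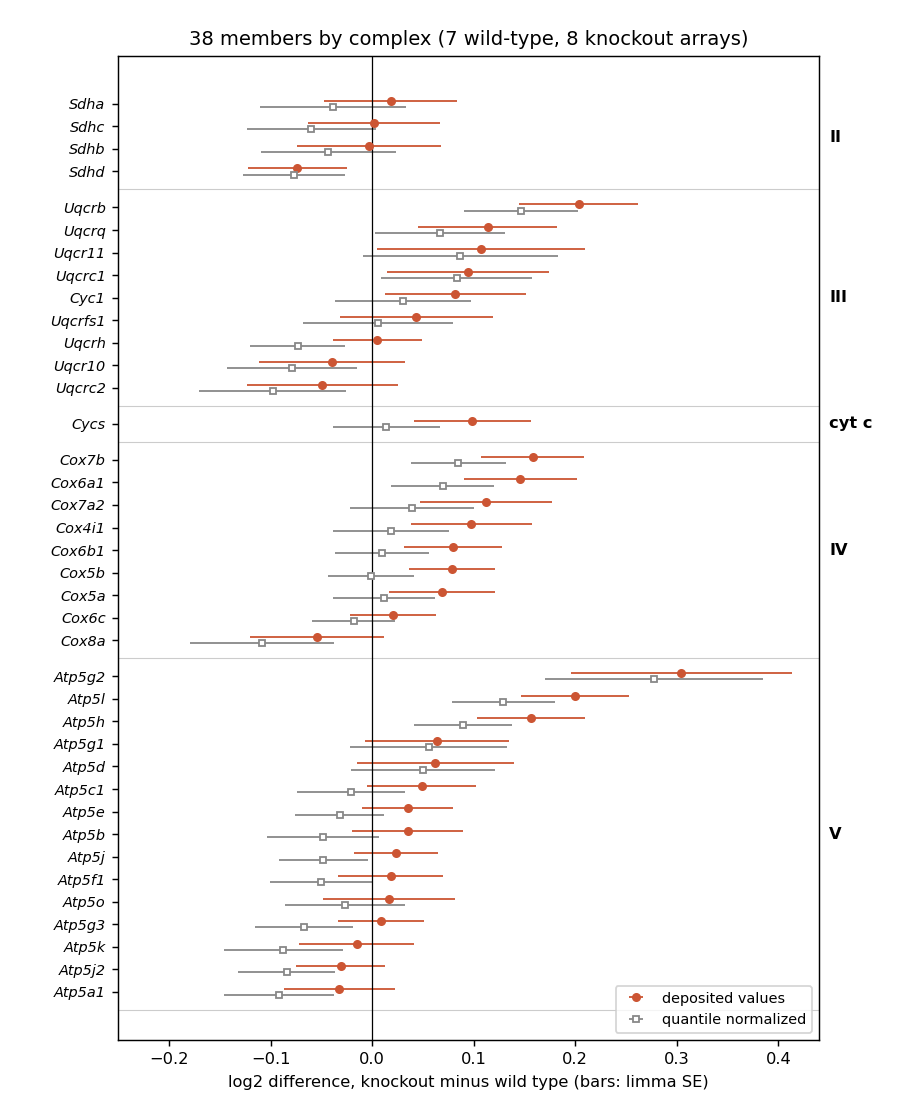
Difference in log2 level between knockout and wild type for each of the 38 members, ordered within complexes II, III, IV and V and cytochrome c (cyt c). Filled circles are deposited values, open squares the same values after quantile normalization, and bars are limma standard errors. On deposited values 30 of 38 members lie right of 0, and after quantile normalization 18 of 38.

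The number of members above 0 differed between scalings, being 28 after median centring and 18 after quantile normalization. After quantile normalization, which gives all arrays the same distribution, the members' median difference was -0.01. On those values 6 probe sets in all (0.0169%) and 0 members passed an adjusted p of 0.05, and 3 members (Uqcrb, Atp5l and Atp5g2) were higher at an unadjusted p below 0.05, against 2.01% of named genes. That share of named genes was 2.875% at a level of 10 to 11, 3.71% at 11 to 12 and 6.74% at 12 to 13. In the deposited values the difference followed brightness: among named genes with a mean level of 12 to 13, 82.58% were higher in the knockout (median 0.05), whereas among those of level 4 to 5 this share was 24.45% (median -0.08). After quantile normalization the share at level 12 to 13 was 41.01%. Most members are bright, with 26 of them at a level of 11 or above. Of the 38, 21 lay above the median difference of all named genes in their own 1-unit level range, and 19 did so after quantile normalization.

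**Figure D2:**
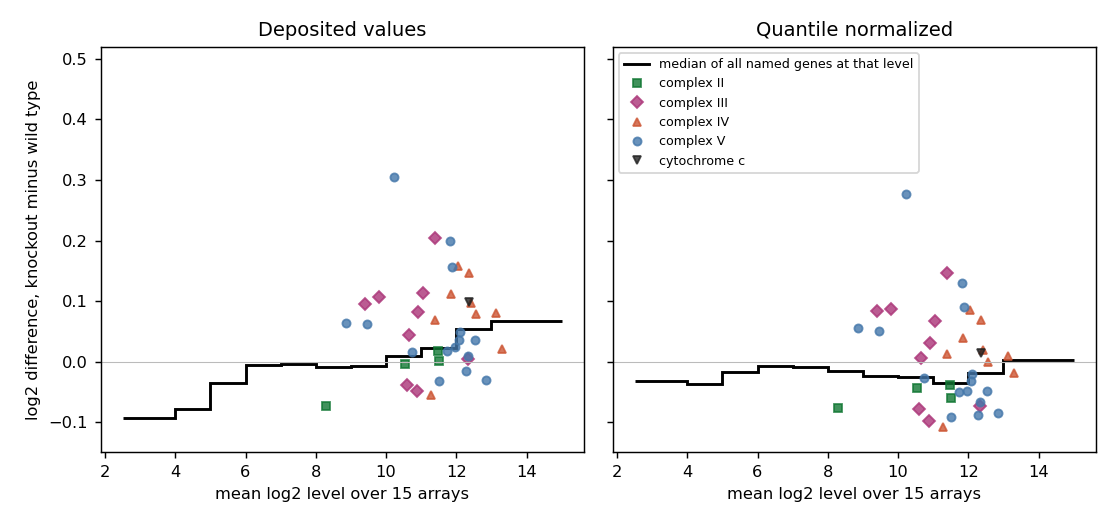
Difference in log2 level between knockout and wild type against the mean log2 level over 15 arrays, with deposited values on the left and quantile-normalized values on the right. Points are the 38 members by complex, and the stepped black line is the median of all named genes in each level range. The line climbs to 0.05 at level 12 to 13 on the left and lies at -0.02 there on the right.

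The complexes differed in where their members lay against that background. All 4 members of complex II were at or below the median of their level range, as were 8 of 15 in complex V, whereas 6 of 9 in complex III and 7 of 9 in complex IV were above it. After quantile normalization these counts above the median were 0 of 4, 5 of 15, 6 of 9 and 7 of 9. The differences between complexes were not tested.

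Complex II, succinate dehydrogenase, showed no shift in the deposited values: 2 of its 4 subunits had higher means in the knockout, and the median difference was 0.00. The catalytic flavoprotein Sdha ranged from 11.34 to 11.63 in wild type (median 11.48) and from 11.26 to 11.65 in the knockout (median 11.52), a difference of 0.02 (SE 0.07). The iron-sulfur subunit Sdhb and the membrane anchor Sdhc differed by 0.00 each. The other anchor, Sdhd, ranged from 8.23 to 8.42 in wild type (median 8.30) and from 8.14 to 8.33 in the knockout (median 8.26), a difference of -0.07 (SE 0.05, limma unadjusted p = 0.15). The ranges overlapped for every subunit, although 7 of the 8 knockout arrays lay below the wild-type mean for Sdhd. After quantile normalization all 4 subunits had lower means in the knockout, with a median difference of -0.05. The deposited median, -0.0008 before rounding, ranged from -0.04 to 0.02 over single arrays left out, and was -0.04 without wild-type replicate 7.

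Complex III, the cytochrome bc1 complex, had 7 of 9 subunits with higher means in the knockout and a median difference of 0.08, or 0.03 after quantile normalization. Among its catalytic proteins, cytochrome c1 (Cyc1) ranged from 10.66 to 11.03 in wild type (median 10.83) and from 10.74 to 11.08 in the knockout (median 10.96). Its difference of 0.08 (SE 0.07) was within the spread of the arrays. The Rieske iron-sulfur protein Uqcrfs1 spanned 10.54 to 10.76 in wild-type arrays and 10.47 to 10.91 in knockout arrays, with medians of 10.62 and 10.59 and a difference of 0.04 (SE 0.08). The core proteins Uqcrc1 and Uqcrc2 had opposite signs, 0.09 (SE 0.08) and -0.05 (SE 0.07), and Uqcrc2 ranged from 10.81 to 11.11 in wild type (median 10.87) and from 10.65 to 11.03 in the knockout (median 10.92).

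The small subunits of complex III held its lowest p-values. Uqcrb, a supernumerary subunit near the ubiquinone site, ranged from 11.18 to 11.42 in wild type (median 11.28) and from 11.28 to 11.64 in the knockout (median 11.52). In 6 of 8 knockout arrays it was above the highest wild-type array, and knockout replicate 1 was at the wild-type median. The difference was 0.20 (SE 0.06, fold 1.15), with a limma adjusted p of 0.217 and an exact two-sided permutation p of 0.00311, or 0.014 on quantile-normalized values. The permutation p-values given for 3 members were not adjusted for the choice of these genes. Uqcrq ranged from 10.75 to 11.14 in wild type (median 10.99) and from 10.90 to 11.25 in the knockout (median 11.16), a difference of 0.11 (SE 0.07). Uqcr11 differed by 0.11 (SE 0.10), but by 0.01 without wild-type replicate 7. The hinge protein Uqcrh differed by 0.01 (SE 0.04) and Uqcr10 by -0.04 (SE 0.07). Wild-type replicate 7 was the lowest wild-type array for Uqcrc1, Uqcrh, Uqcrq, Uqcr10 and Uqcr11, and without it the median difference of the complex was 0.04. Without knockout replicate 6, the highest knockout array for 8 of the 9 subunits, it was 0.04 as well.

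Cytochrome c (Cycs) ranged from 12.19 to 12.38 in wild type (median 12.34) and from 12.27 to 12.58 in the knockout (median 12.40). In 4 of 8 knockout arrays it was above the highest wild-type array. The difference was 0.10 (SE 0.06, limma adjusted p = 0.622) in the deposited values and 0.01 (SE 0.05) after quantile normalization. Dimmer probe sets of Cycs differed by 0.14 (SE 0.06) and -0.09 (SE 0.15) in the deposited values.

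Complex IV, cytochrome c oxidase, had 8 of 9 measured nuclear subunits with higher means in the knockout and a median difference of 0.08. After quantile normalization 6 of 9 were higher and the median was 0.01. These nuclear subunits surround a catalytic core made in the mitochondrion. Cox7b ranged from 11.91 to 12.01 in wild type (median 11.95) and from 11.93 to 12.24 in the knockout (median 12.11). In 7 of 8 knockout arrays it lay above all wild-type arrays, knockout replicate 1 being the exception. The difference was 0.16 (SE 0.05, fold 1.12), with a limma adjusted p of 0.281 and an exact two-sided permutation p of 0.00295. After quantile normalization the difference was 0.08 (SE 0.05), with a limma unadjusted p of 0.0892 and an exact permutation p of 0.034.

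Cox6a1, the widely expressed form of subunit VIa, ranged from 12.05 to 12.36 in wild type (median 12.30) and from 12.31 to 12.51 in the knockout (median 12.42). All 8 knockout arrays were above the wild-type mean and 6 were above the highest wild-type array. The difference was 0.15 (SE 0.06, limma adjusted p = 0.386), 0.11 without wild-type replicate 7 and 0.07 (SE 0.05) after quantile normalization. Cox5b, a zinc-binding subunit, ranged from 12.43 to 12.58 in wild type (median 12.51) and from 12.52 to 12.65 in the knockout (median 12.59), a difference of 0.08 (SE 0.04) that was 0.00 after quantile normalization. Cox4i1, the main form of subunit IV, ranged from 12.11 to 12.52 in wild type (median 12.39) and from 12.35 to 12.55 in the knockout (median 12.46). Its difference was 0.10 (SE 0.06), 0.06 without wild-type replicate 7, and 0.02 after quantile normalization.

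Of the other complex IV subunits, Cox7a2 differed by 0.11 (SE 0.07), Cox6b1 by 0.08 (SE 0.05), Cox5a by 0.07 (SE 0.05) and Cox6c by 0.02 (SE 0.04). Cox8a was the exception in sign: it spanned 11.22 to 11.40 in wild-type arrays and 11.08 to 11.44 in knockout arrays with a median of 11.27 in both, and differed by -0.05 (SE 0.07). Cox8a lies on chromosome 19, as does Sfrp5.

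**Figure D3:**
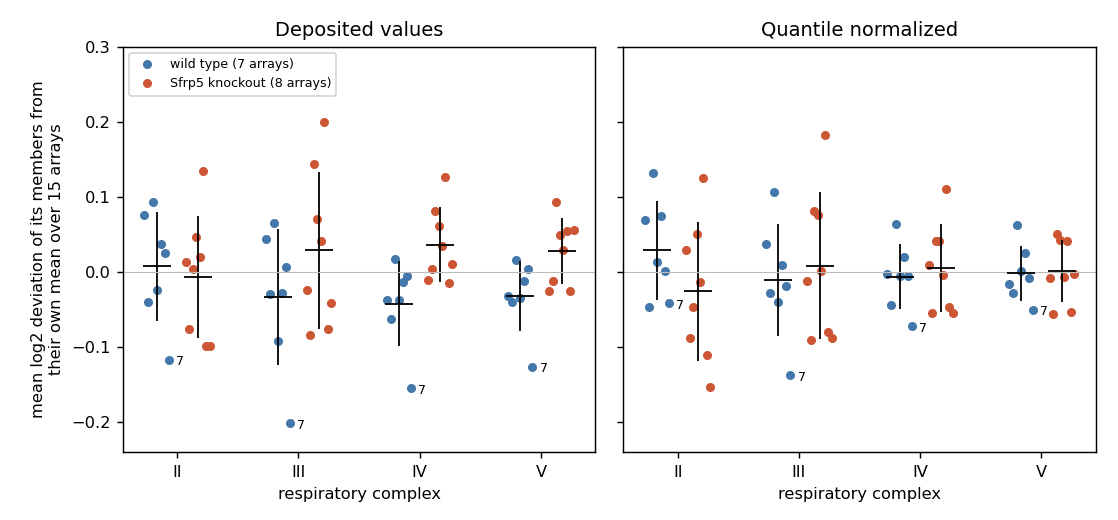
Mean log2 deviation of the members of complexes II, III, IV and V from their own means over 15 arrays, one point per array, with deposited values on the left and quantile-normalized values on the right. Black lines are the mean and SD of each genotype (7 wild-type and 8 knockout arrays), and 7 marks wild-type replicate 7, the lowest wild-type array in all complexes on the left.

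Per array, 8 of 8 knockout arrays had a complex IV mean above that of the wild-type group in the deposited values, and 4 exceeded the highest wild-type array. For complex V these counts were 8 and 5, for complex III 5 and 3, and for complex II 4 and 1. After quantile normalization the counts for complex IV were 5 and 1 and those for complex V 3 and 0. Over all 38 members, wild-type replicate 7 was the lowest array (-0.15) and knockout replicate 6 the highest (0.11). Wild-type replicate 7 was also the lowest in the adipocyte marker mean (11.71) and had the lowest 95th percentile of all probe sets (10.885), against 10.910 to 11.027 on the other arrays. Without it, the median difference of the 38 members was 0.03.

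Complex V, ATP synthase, had 12 of 15 subunits with higher means in the knockout and a median difference of 0.04 in the deposited values. After quantile normalization 5 of 15 were higher and the median was -0.03. In the catalytic F1 part, the beta subunit Atp5b ranged from 12.45 to 12.61 in wild type (median 12.52) and from 12.43 to 12.67 in the knockout (median 12.57), a difference of 0.04 (SE 0.05) that became -0.05 after quantile normalization. The alpha subunit Atp5a1 ranged from 11.36 to 11.63 in wild type (median 11.53) and from 11.35 to 11.60 in the knockout (median 11.49), a difference of -0.03 (SE 0.05). The gamma, delta and epsilon subunits (Atp5c1, Atp5d and Atp5e) differed by 0.05, 0.06 and 0.04, each less than its SE (0.05, 0.08 and 0.04). Genotypes overlapped for all 5 subunits of F1.

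The ring of subunit c, which turns as protons cross the membrane, is encoded by Atp5g1, Atp5g2 and Atp5g3. These genes make one mature protein from different precursors. Atp5g2 ranged from 9.43 to 10.35 in wild type (median 10.14) and from 10.26 to 10.52 in the knockout (median 10.37), whereas Atp5g1 ranged from 8.59 to 8.97 in wild type (median 8.88) and from 8.75 to 9.13 in the knockout (median 8.86). Atp5g3 ranged from 12.27 to 12.40 in wild type (median 12.31) and from 12.23 to 12.41 in the knockout (median 12.33).

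All 8 knockout arrays were above the wild-type mean of Atp5g2, and 5 were above its highest wild-type array. Its difference was 0.30 (SE 0.11, fold 1.23, limma adjusted p = 0.339), the highest among the 38 members, and 0.28 after quantile normalization. Wild-type replicate 7 lay at 9.43 with the next wild-type array at 9.985, and without it the difference was 0.20. Atp5g1 differed by 0.06 (SE 0.07), with 2 wild-type arrays below every knockout array and 2 knockout arrays above every wild-type array, and by 0.02 without wild-type replicate 1. Atp5g3 differed by 0.01 (SE 0.04), with ranges that overlapped almost fully. Whether the 3 genes differ from each other in their response was not tested.

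**Figure D4:**
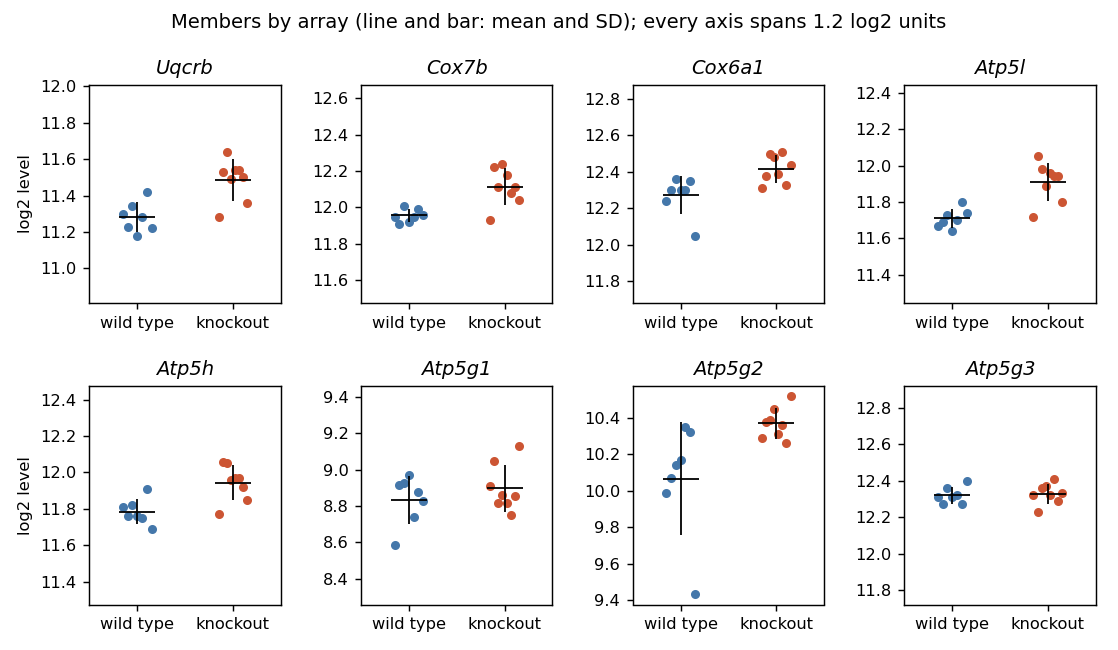
Log2 level on each array for 8 members: Uqcrb of complex III, Cox7b and Cox6a1 of complex IV, and Atp5l, Atp5h and the subunit c genes Atp5g1, Atp5g2 and Atp5g3 of complex V. Points are arrays (7 wild type, 8 knockout), black lines the mean and SD, and every axis spans the same width. For Cox7b and Atp5l 7 of 8 knockout arrays lie above all wild-type arrays, whereas Atp5g3 overlaps almost fully.

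The stalk and membrane subunits of ATP synthase held its lowest p-values. Atp5l, subunit g, which lies at the interface of ATP synthase dimers, ranged from 11.64 to 11.80 in wild type (median 11.70) and from 11.72 to 12.05 in the knockout (median 11.94). In 7 of 8 knockout arrays it was above every wild-type array. The difference was 0.20 (SE 0.05, fold 1.15), with a limma adjusted p of 0.18 and an exact two-sided permutation p of 0.00186, or 0.0123 on quantile-normalized values, where the difference was 0.13 (SE 0.05).

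Atp5h, subunit d of the peripheral stalk, ranged from 11.69 to 11.91 in wild type (median 11.76) and from 11.77 to 12.06 in the knockout (median 11.96). In 6 of 8 knockout arrays it was above the highest wild-type array. The difference was 0.16 (SE 0.05, limma adjusted p = 0.313) and 0.09 (SE 0.05) after quantile normalization. The other stalk subunits differed by 0.02 each: Atp5f1 (subunit b), Atp5j (coupling factor 6) and Atp5o (OSCP). A dimmer probe set of Atp5f1 differed by -0.09 (SE 0.05). Subunit e, Atp5k, which sits beside subunit g, differed by -0.02 (SE 0.06), and subunit f, Atp5j2, by -0.03 (SE 0.04).

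Some members were read by several probe sets and others by 1, and the difference between these sets of members was not tested. All 11 members with several probe sets had higher means in the knockout on their brightest probe set (median difference 0.11), and 5 of the 6 members with an unadjusted p below 0.05 were among them. After quantile normalization 8 of the 11 were higher, 3 of them at an unadjusted p below 0.05. Of the 27 members with 1 probe set, 19 were higher (median 0.02), and 10 after quantile normalization. Over all 998 named genes with several probe sets, 57.41% were higher in the knockout and 7.11% were so at an unadjusted p below 0.05. Further probe sets under one symbol can match near-identical copies of a gene elsewhere in the genome, and the annotation used does not separate these, so the values of these 11 genes are less certain as measures of one gene. The same holds for Usmg5, with 3 probe sets, and for COX2 and ND3, with 2 each, among the genes described next. Among the listed genes, probe set numbers mostly follow chromosome order. For Atp5g2, Atp5l, Cox7b, Atp5f1, Cycs, Usmg5 and COX2 the brightest probe set is numbered among genes of another chromosome. Numbered among genes of their own chromosome, a dimmer probe set differed by 0.28 for Atp5g2, 0.21 for Atp5l and 0.12 for Cox7b. For Atp5f1 and Cycs it differed by -0.09 each. Which copy each probe set reads was not tested.

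**Figure D5:**
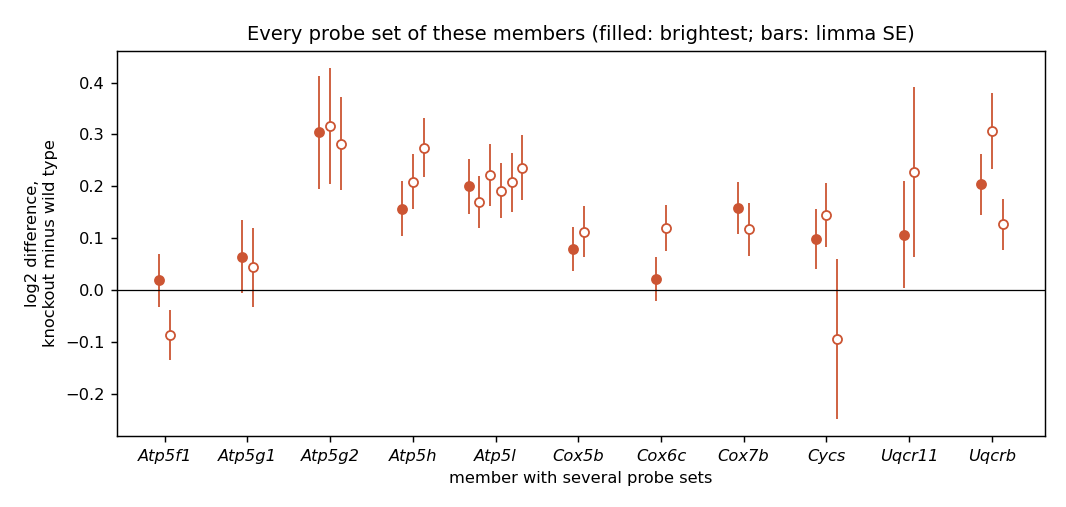
Difference in log2 level between knockout and wild type for every probe set of the 11 members that have several. Filled circles are the brightest probe set of a gene, open circles the others, and bars are limma standard errors. All 6 probe sets of Atp5l lie between 0.17 and 0.24, and those of Atp5f1 and Cycs fall on both sides of 0.

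Within these genes the probe sets mostly shared a sign. All 6 probe sets of Atp5l were higher in the knockout, by 0.17 to 0.24, all 3 of Uqcrb by 0.13 to 0.31, all 3 of Atp5g2 by 0.28 to 0.32 and all 3 of Atp5h by 0.16 to 0.27. Probe sets that share sequence are not separate measurements of a gene. The lowest adjusted p among all probe sets of the members was 0.0951, for a dimmer probe set of Atp5h. Atp5f1 (0.02 and -0.09) and Cycs (0.10, 0.14 and -0.09) had probe sets of both signs.

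The genes around these subunits gave 0 calls at an adjusted p of 0.05 in any list. Of 13 listed subunits encoded in mitochondrial DNA, 2 were measured. COX2, which holds the first copper centre of complex IV, differed by 0.27 (SE 0.07, limma adjusted p = 0.168), or 0.20 after quantile normalization. In the deposited values 7 of 8 knockout arrays were above every wild-type array for COX2. ND3 of complex I differed by 0.33 (SE 0.07, limma adjusted p = 0.0951), or 0.25 after quantile normalization. Both lie at a level of 12 to 13, where 23.6% of named genes were higher at an unadjusted limma p below 0.05. Complex I, described only for comparison, had 27 of 34 measured nuclear subunits higher (median 0.07) and 20 after quantile normalization (median 0.01).

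Among 9 alternative or tissue-restricted proteins of complex IV, 6 were higher and 3 lower (Cox4i2, Cox6a2 and Cox7a1), and 0 passed an unadjusted p of 0.05. Of the forms known from muscle and brown fat, Cox6a2 differed by 0.00 (SE 0.08). Cox8b spanned 9.33 to 10.37 in wild-type arrays and 9.56 to 10.58 in knockout arrays, a difference of 0.28 (SE 0.17). Cox7a1 spanned 9.03 to 10.03 in wild-type arrays and 8.47 to 9.45 in knockout arrays, a difference of -0.20 (SE 0.16) that was -0.08 without wild-type replicate 6 and -0.13 without the arrays high in epididymis markers. Cox6b2, the testis form of subunit VIb, differed by 0.33 (SE 0.17), with its highest values in either genotype at 7.96 and 8.78. The array at 8.78 was knockout replicate 2, which was high in epididymis markers, and without both arrays high in these markers the difference was 0.27.

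Of 16 measured assembly factors of complex IV, 10 were higher and 6 lower, with 3 (Coa6, Cox17 and Cox20) and 2 (Cox18 and Lrpprc) at an unadjusted p below 0.05, of which Cox17, Cox20 and Lrpprc are named after their values were seen. The shares over all named genes were 2.3% and 4.39%. At the level of each higher factor, the share higher was 23.6% for Cox17 (12 to 13), 2.45% for Coa6 (8 to 9) and 2.38% for Cox20 (9 to 10). After quantile normalization 1 of the higher factors, Coa6, and both lower ones had an unadjusted p below 0.05. Cox18, which moves the tail of COX2 across the inner membrane, spanned 8.38 to 8.68 in wild-type arrays and 8.04 to 8.48 in knockout arrays. All 8 knockout arrays were below its wild-type mean, and the difference was -0.25 (SE 0.07, limma adjusted p = 0.19), or -0.26 after quantile normalization. Coa6, which acts in copper delivery to COX2, spanned 7.82 to 8.07 in wild-type arrays and 7.99 to 8.33 in knockout arrays, a difference of 0.15 (SE 0.06, adjusted p = 0.4). Cox15, an enzyme of heme A synthesis on chromosome 19, differed by 0.16 (SE 0.08).

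The other assembly lists held smaller differences. All 4 assembly factors of complex II had lower means in the knockout, with a median of -0.05 and 0 at an unadjusted p below 0.05. Sdhaf3, which helps to mature the iron-sulfur subunit, differed by -0.17 (SE 0.11), and Sdhaf4, which acts on the flavoprotein, by -0.07 (SE 0.13). Of 6 factors for complex III, 3 were higher (Lyrm7, Uqcc1 and Uqcc2) and 3 lower (Bcs1l, Ttc19 and Uqcc3). Lyrm7, a chaperone of the Rieske protein, differed by 0.08 (SE 0.09), and Ttc19 by -0.04 (SE 0.07).

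Of 7 further proteins of ATP synthase, 6 were higher and 1, the assembly factor Atpaf1, was lower by less than its SE. Usmg5, a small membrane subunit also called DAPIT, spanned 12.40 to 12.67 in wild-type arrays and 12.50 to 12.92 in knockout arrays, with 6 of 8 knockout arrays above every wild-type array. The difference was 0.22 (SE 0.06, limma adjusted p = 0.205), and 0.15 after quantile normalization. The gene Usmg5 also lies on chromosome 19, but the probe set read here is numbered among genes of the X chromosome. Beside Sfrp5, Cox8a and Cox15, other listed genes on chromosome 19 differed by -0.03 (Sdhaf2) to 0.14 (Ndufb8). A link to the position of Sfrp5 was not tested. The inhibitory factor Atpif1 differed by 0.09 (SE 0.07).

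Of 10 transcriptional regulators of respiratory genes, 8 were higher and 2 lower (Nrf1 and Esrrb), with 0 at an unadjusted p below 0.05. Gabpa, the DNA-binding subunit of GABP, spanned 9.49 to 10.03 in wild-type arrays and 9.91 to 10.15 in knockout arrays, a difference of 0.15 (SE 0.08). Ppargc1b differed by 0.13 (SE 0.09) and Ppargc1a by 0.08 (SE 0.23), the latter with a spread of 7.30 to 8.85 among knockout arrays. Esrra, which encodes an estrogen-related receptor, differed by 0.01 (SE 0.06).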

How the data were processed

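Total RNA from gonadal fat was amplified and labelled with biotin, 1 array per mouse, per the labels' protocols. The deposited values are log2 levels of 35557 probe sets, made with RMA, per the submitters' processing notes. Those notes list, without saying what each did, Affymetrix Expression Console 1.1.2800.19935, affy 1.18 and limma. RMA summarises the probes of a set and aligns arrays, so shifts shared by most genes may already be removed. The sources used here give neither the genome build nor which arrays were normalized together. Detection was not assessed, since no scanner file was used. The number of arrays limits the precision.

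The platform annotation gave 1 symbol to 21789 probe sets, several to 1621 and none to 12147, and 21698 identifiers matched RefSeq GRCm38.p6. Genotypes (7 and 8 arrays, numbered as biological replicates) entered 1 fit in limma 3.58.1 under R 4.3.3 (lmFit, eBayes, no filter, no covariate), and p-values were adjusted over the 35557 probe sets (Benjamini-Hochberg). The step was tested on simulated data. These held independent noise and no shift that follows brightness, so that test does not bear on the scaling of the arrays. Exact permutations used all 6435 splits of the arrays. Quantile normalization used limma on the deposited values, and level ranges are 1 log2 unit wide. Values by array are given for the 2 or 3 lowest p-values and the lowest difference of each complex, for a fixed set of catalytic and subunit c genes, and for the 3 members tested by permutation. In the lists of other genes, the 2 with the lowest p and a fixed set are named. Subunits summarised by difference alone are the rest of the 38, and COX2 and ND3 were named because only they were measured among subunits of mitochondrial DNA. The members and lists were chosen with earlier results of these data known. Wild-type arrays come before knockout arrays in the numbering of the deposited samples, so handling order, if it followed that, and genotype cannot be told apart. Alternatives were other scalings, variance models, array weights, a filter, a replicate block, probe sets averaged per gene, and arrays left out.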

Additional observations from a re-analysis of the deposited data

Results flagged for a closer look

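In 8 of 88 groups of arrays examined (each of the 38 members, Sfrp5, and the means of all members and of the 4 complexes, within each genotype), 1 array stood apart from the rest by Dixon's criterion, where chance gives about 1 in 20. The groups reuse the same arrays and the means reuse the members. They are not independent, so the count cannot be weighed against that rate. In 7 of the 8 flagged groups the array that stood apart was wild-type replicate 7, at the low end. It lay at 11.21 for Sdhc (other wild-type arrays 11.5 to 11.63), at 10.75 for Uqcrq (10.98 to 11.14) and at 9.173 for Uqcr11 (9.744 to 9.884). It lay at 12.05 for Cox6a1 (12.24 to 12.36), at 11.52 for Cox7a2 (11.76 to 11.95) and at 9.43 for Atp5g2 (9.985 to 10.35). The mean deviation of the complex V members was -0.1261 on this array, against -0.04 to 0.02 on the other wild-type arrays. Knockout replicate 8 was high for Atp5d, at 9.836, with the other knockout arrays at 9.279 to 9.521.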

How the results depend on the processing

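In 25 other settings, and with adjustment over named genes, 0 members passed an adjusted p of 0.05 (3 to 8 did unadjusted), and the lowest adjusted p of a member was 0.0636 (Atp5l, without knockout replicate 1). With 12 probe sets called in all, array weights gave 25, leaving out dim probe sets 26, an intensity trend with a robust prior 48, median centring 7, quantile normalization 6 and leaving out knockout replicates 7 and 8 together 2. Leaving out 1 array gave 0 to 133: 133 without knockout replicate 1, 32 without wild-type replicate 6, 0 without any 1 of knockout replicates 2, 5 and 8 and wild-type replicates 2 to 5 (where limma gave 3003 to 3521 at an unadjusted p below 0.05), and 2 to 8 otherwise. Limma gave 0 without both epididymis-high arrays (2963 at an unadjusted p below 0.05) and 0 without both macrophage-high arrays (3034). Replicate numbers did not pair the arrays (3 of 7 same-number correlations above 0.1, range -0.117 to 0.248), and a replicate block gave 0 calls (3098 unadjusted), Sfrp5 at -1.2758 and 6 members higher at an unadjusted p below 0.05. Knockout replicate 8 has no wild-type array of its number, so the block's differences equal those without that array. Sfrp5 kept its sign and lost its call also without the epididymis-high (-1.1674) and macrophage-high arrays (-1.2083), with a range of -1.2923 to -1.1343 over arrays left out. Quantile normalization gave 18 members higher, 3 of them at an unadjusted p below 0.05, and medians of 0.0118 for complex IV and -0.032 for complex V. It also turned Atp5b (-0.0482), Atp5g3 (-0.0673), Cox5b (-0.0013), Sdha (-0.0384) and Esrra (-0.006). Leaving out knockout replicates 7 and 8 turned Atp5a1 (0.0082) and Uqcrc2 (0.0089), and Esrra was -0.0028 with median centring and -0.0112 without the macrophage-high arrays. Over single arrays left out, Esrra ranged from -0.0214 to 0.039, Sdhaf4 from -0.1274 to 0.0094, Ppargc1a from -0.037 to 0.1846, Sdha from -0.0051 to 0.051 and Atp5g3 from -0.0028 to 0.0227; 25 to 32 members were higher. The cause of these changes was not tested.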
